A study of Mus musculus with 18 samples.

Results

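DN1 cells, the most immature fraction of the thymus, were set against the whole thymus of mice in which the Notch ligand DLL4 had been blocked. The comparison used 6 of the 18 samples of the study: 3 of sorted DN1 cells and 3 of total thymocytes, all from C57BL/6 mice whose thymi were taken 2 weeks after injection of an anti-DLL4 monoclonal antibody. The samples were chosen by their titles. Per the labels' protocols, DN1 cells were sorted as lacking CD4 and CD8, bearing CD44 and lacking CD25, and total thymocytes were not sorted, so they also hold DN1 cells. Cells of mice given an isotype control antibody were used beside them (2 samples of DN1 cells and 4 of total thymocytes). The study's text speaks of 4 animals per antibody and no label ties a sample to an animal, so the DN1 and thymocyte samples may share animals, and the p-values measure the spread between these samples only.

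Thymic progenitors become T cells when DLL4 on the thymic epithelium engages their Notch1 receptor. Where that signal is lost, the thymus is known to make B cells and other non-T cells. In an untreated thymus most cells are double-positive (DP) thymocytes, which carry both CD4 and CD8, and the DN1 fraction is a small mixture of T-cell progenitors and of B, NK and myeloid cells that lack CD4 and CD8.

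RNA was amplified in 2 rounds, labelled with Cy3 and measured on 1-colour Agilent arrays, 1 array per sample. A level is the log2 of a gene's processed intensity minus the 75th percentile of its array, so 0 is a signal equal to that percentile. Differences are log2 DN1 minus thymocytes with the median over the 21652 tested genes (0.06) taken off. Each has a standard error (SE) and limma's Benjamini-Hochberg adjusted p, and a gene was called under 0.05. The p tests the difference before the median was taken off. The median taken off was -0.41 for control mice and 0.46 for the difference between treated and control mice. Sizes and p of those 2 contrasts are therefore centred differently. The 75th percentile was 977.7 to 3641.7 on the treated DN1 arrays and 442.8 to 4295.4 on the treated thymocyte arrays, and 69.9% to 80.2% of spots were well above background. Across tested genes, arrays correlated at 0.87 to 0.92 within DN1 cells, 0.89 to 0.94 within thymocytes and 0.81 to 0.93 between them, so the whole profiles overlapped. All 6 slides of the study were scanned on the same day, and slide 2 was the only one with both groups (DN1 replicate 1 and thymocyte replicate 2). On that slide all 56 called genes named below had the sign of the overall difference. The called genes did not overlap between the groups, so this was all but fixed in advance and is no check on the slide. In bulk RNA, fewer cells of a type and less RNA per cell cannot be told apart.

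After DLL4 blockade, a set of T-lineage, macrophage, neutrophil, globin and NK-receptor genes was lower in DN1 cells than in the whole thymus, and a few B-cell genes were higher. In all, 26 genes were higher in DN1 cells (0.12% of the tested genes) and 105 were lower (0.485%), 0.605% in either direction. An unadjusted p under 0.05 was reached by 2300 genes (10.6%). The counts given below for each gene list are to be read against these shares of all tested genes. The arrays of the groups did not overlap for any of the 131 called genes, while of all tested genes 7.06% lay above without overlap and 6.91% below. Where at least 1 array of each group measured the probe well above background, called rises ran from 2.14 to 6.60 (14 genes) and called falls from -2.22 to -9.21 (95 genes). The other 12 rises and 10 falls were against a group without such a measurement, so their fitted sizes are no measured folds. The ends of the ranges at 6.60 and -9.21 had 1 of 3 arrays of the dimmer group well above background. Those 2 sizes are therefore uncertain too.

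These counts rest on a spread shared by all 18 arrays. Fitted on the 6 arrays alone, limma called 0 genes (smallest adjusted p = 0.0607, 1805 genes at an unadjusted p under 0.05). That fit has the same group means, so no sign could change in it. With slide as a fixed block limma called 0 higher and 2 lower, and all 131 genes kept their sign. The counts of higher and lower genes were 2 and 19 without thymocyte replicate 2, 16 and 58 without thymocyte replicate 1, 20 and 42 without thymocyte replicate 3, and 6 and 54 without DN1 replicate 1. They were 16 and 84 without DN1 replicate 2 and 41 and 47 without DN1 replicate 3. Control arrays entered through the spread: the counts were 13 and 67 without control thymocyte replicate 2 and 17 and 68 without replicate 3. Higher genes were 19.8% of the calls, 27.1% with each array centred on its median and 9.76% with normexp background correction.

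**Figure D1:**
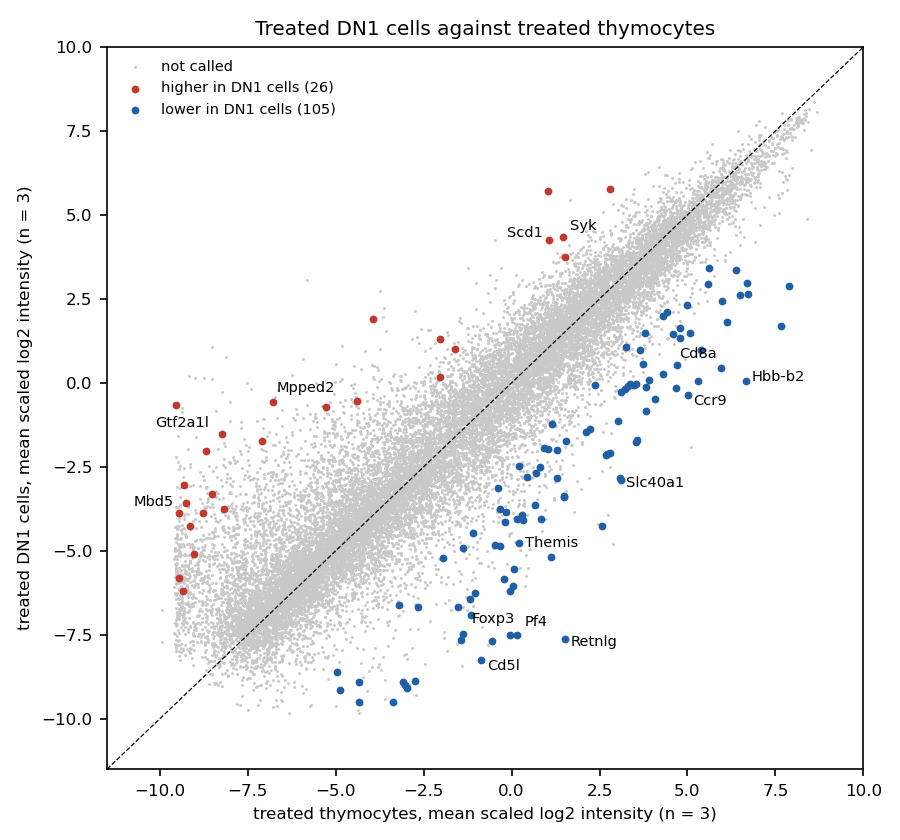
Mean scaled log2 intensity of each tested gene in treated DN1 cells (vertical axis, n = 3) against treated thymocytes (horizontal axis, n = 3); the dashed line marks equal levels. The 105 genes called lower in DN1 cells (blue) lie below the line over the whole range of levels, and the 26 called higher (red) include Syk and Scd1 at high levels and a group that was near the floor in thymocytes.

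The sort was checked first on its own genes. Cd8a, which encodes a chain of the CD8 co-receptor, was at 2.71, 0.21 and -1.58 on the DN1 arrays and at 6.14, 6.19 and 5.56 on the thymocyte arrays. All DN1 arrays lay below all thymocyte arrays, and DN1 replicate 1 held the most. Cd8a was lower in DN1 cells by 47.5-fold (-5.57 ± 0.94 SE, adjusted p = 0.0154), and all 3 of its probes fell. Cd8b1, the other chain of CD8, was at 4.96, 2.05 and 1.59 in DN1 cells and 7.0, 7.46 and 9.25 in thymocytes (-5.09 ± 0.85, adjusted p = 0.0154), while a second, dimmer probe of it was at 0.09. Cd4 had 1 probe, which was dim in both groups except on thymocyte replicate 3 (levels -3.22, -3.56 and -4.48 against -3.32, -3.25 and 0.72, adjusted p = 0.517).

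Cd44, the adhesion receptor by which DN1 cells were gated, was no higher in the DN1 cells of treated mice. Its levels were 1.59, 2.22 and 2.34 in DN1 cells and 2.72, 2.28 and 3.32 in thymocytes, and the groups overlapped (-0.78 ± 0.46, adjusted p = 0.642). In control mice the same probe was higher in DN1 cells by 3.00 ± 0.49 (adjusted p = 0.0138), and the difference between treated and control mice missed the threshold (-3.77 ± 0.68, adjusted p = 0.0851). Il2ra, which encodes CD25 and was gated out, had overlapping levels of 0.32, 0.02 and 0.49 against -0.31, 0.06 and -2.34 (1.08 ± 0.71, adjusted p = 0.631). CD8 RNA thus followed the sort, while the RNA of Cd44 did not set these DN1 cells above the thymus.

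Genes of the DP stage and of the T-cell receptor complex were among those lower in DN1 cells. Of 17 tested DP-stage genes 5 were called lower and 0 higher, where 0.485% of all genes were called lower. Their median was -1.86 against 0 over all tested genes, and 8 of 17 lay below without overlap. Of 23 genes for CD3 chains and the kinases and adaptors near them 6 were called lower and 0 higher. Their median was -2.33, 22 of 23 were negative, and 18 of 23 lay below without overlap (6.91% of all genes did).

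Beside Cd8a and Cd8b1, the called DP-stage genes included Ccr9 and Aqp11. Ccr9, the receptor for the thymic chemokine CCL25, was at 0.65, -0.36 and -1.36 in DN1 cells and 4.01, 4.51 and 6.54 in thymocytes (-5.44 ± 0.88, adjusted p = 0.0124). Aqp11, a water channel, was nearly constant across the thymocyte arrays (5.06, 5.06 and 5.09) and lower on every DN1 array (1.82, 1.46 and 1.2; -3.63 ± 0.55, adjusted p = 0.01). Both genes were separated without overlap. Among γδ T-cell genes 1 of 8 was called lower (median -0.17), and among innate lymphoid cell genes 1 of 16 (median -0.32), against 0.485% of all genes.

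The called genes around the T-cell receptor include its zeta chain and several signalling proteins. Themis, an adaptor needed for positive selection, was at -3.85, -4.15 and -6.34 in DN1 cells against 0.02, 0.02 and 0.62 in thymocytes, a 33.4-fold fall (-5.06 ± 0.74, adjusted p = 0.00698). Sh2d1a encodes the adaptor SAP and was at -1.24, -2.86 and -2.28 against 2.86, 3.38 and 1.90 (-4.90 ± 0.62, adjusted p = 0.0034). None of these arrays overlapped between the groups. Cd6 and Cd5, surface receptors that temper T-cell receptor signals, fell by 3.78 and 3.58 (adjusted p = 0.0175 and 0.0154), and Cd247, the zeta chain, by 3.21 (adjusted p = 0.03). Dimmer probes, well above background on all 6 arrays, were at -2.06 and -0.22 for Cd247 and at -0.89 for Cd6. Skap1, an adaptor that links the receptor to adhesion, completed the 6 calls at -2.69 (adjusted p = 0.0353) and is named after its value was seen. The CD3 chains Cd3e (-1.73), Cd3d (-2.79) and Cd3g (-1.70) each lay below without overlap but missed the threshold (adjusted p = 0.309, 0.0828 and 0.239). Without the dimmest array of each group (DN1 replicate 1 and thymocyte replicate 3, an alternative chosen after seeing the data), 2 of the DP-stage genes and 2 of the genes around the receptor were still called, at medians of -2.48 and -2.44.

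For T-cell genes that moved together, the 250 bases before the transcription start (RefSeq, GRCm38.p6, read 5′ to 3′ on the gene's strand) are shown. Capitals mark the E-box letters CAGGTG or CAGCTG, the motif of the E proteins, and GAGGAAGT, a motif of the factor PU.1, on either strand.
Cd8a, chr6:71373177-71373426: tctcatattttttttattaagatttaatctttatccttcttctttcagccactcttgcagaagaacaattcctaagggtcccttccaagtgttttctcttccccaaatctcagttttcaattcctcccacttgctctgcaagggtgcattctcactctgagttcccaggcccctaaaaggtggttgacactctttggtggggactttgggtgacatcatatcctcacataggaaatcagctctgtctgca
Ccr9, chr9:123766961-123767210: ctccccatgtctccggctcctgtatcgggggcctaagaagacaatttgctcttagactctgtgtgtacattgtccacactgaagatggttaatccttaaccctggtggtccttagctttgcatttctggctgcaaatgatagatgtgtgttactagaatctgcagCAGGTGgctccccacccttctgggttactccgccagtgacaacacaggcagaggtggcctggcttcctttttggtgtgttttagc
Cd5, chr19:10738975-10739224: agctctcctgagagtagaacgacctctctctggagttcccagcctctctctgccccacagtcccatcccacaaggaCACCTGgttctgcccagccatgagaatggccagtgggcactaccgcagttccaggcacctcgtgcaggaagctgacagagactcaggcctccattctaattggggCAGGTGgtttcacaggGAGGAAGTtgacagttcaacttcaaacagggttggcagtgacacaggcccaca
Cd247, chr1:165788431-165788680: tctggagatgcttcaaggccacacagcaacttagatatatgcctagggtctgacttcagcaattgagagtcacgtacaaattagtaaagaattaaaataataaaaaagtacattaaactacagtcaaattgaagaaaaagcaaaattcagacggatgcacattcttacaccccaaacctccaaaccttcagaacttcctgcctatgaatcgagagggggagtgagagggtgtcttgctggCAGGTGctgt
The windows of Ccr9 (85 bases before the start), Cd5 (174 and 69) and Cd247 (10) hold CAGGTG on 1 strand or the other, and that of Cd5 also holds GAGGAAGT 53 bases before the start. The Cd8a window holds neither, nor the EBF letters CCCNNGGG or the TCF letters CTTTGA. Of 10 called genes on the DP-stage and receptor lists that are named here 6 had an entry in the RefSeq table, and 3 of the 6 held an E-box in a window of this length. Among all 32851 such windows 27.7% held an E-box, 17.2% CAGGTG, 13% CAGCTG, 2.44% GAGGAAGT, 11.8% CCCNNGGG and 13.8% CTTTGA. These are matches of letters and no measure of binding.

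**Figure D2:**
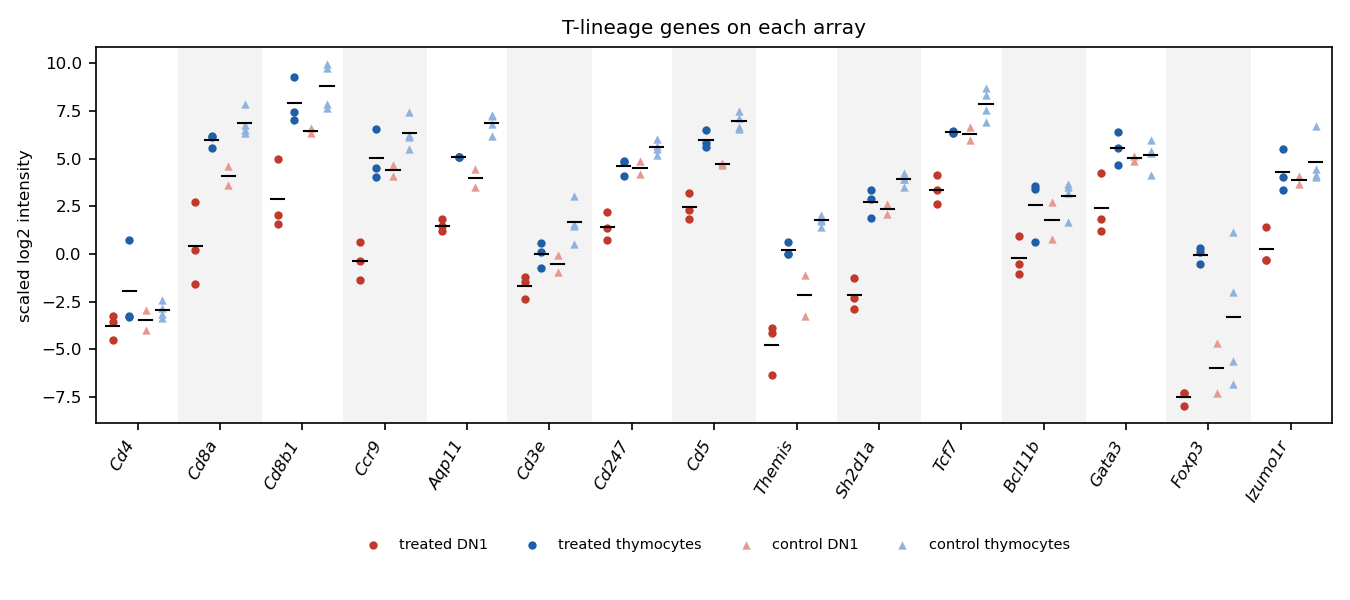
Scaled log2 intensity of 15 T-lineage genes on each array of treated (circles) and control (triangles) DN1 cells and thymocytes; bars are group means. The treated DN1 arrays lie below the treated thymocyte arrays without overlap for Cd8a, Ccr9, Themis and Foxp3, and overlap them for Cd4 and Bcl11b.

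Transcription factors of the T lineage gave fewer calls. Of 18 tested, 2 were called lower (0.485% of all genes were) and 0 higher, at a median of -0.58. Tcf7, which encodes TCF1 and is switched on by Notch in early T cells, was at 3.34, 4.15 and 2.60 in DN1 cells and 6.33, 6.35 and 6.44 in thymocytes (-3.07 ± 0.59, adjusted p = 0.0366). Satb1, a genome organizer of thymocytes, was at 1.85, 3.26 and 1.85 against 4.96, 4.92 and 5.09 (-2.72 ± 0.57, adjusted p = 0.0456). A second probe of Satb1, well above background on all 6 arrays, was at -0.80, and the call was kept in 5 of 20 alternative fits. Gata3 (-3.17, adjusted p = 0.154) and Bcl11b (-2.82, adjusted p = 0.226) had differences of like size with a wider spread, and Bcl11b overlapped between the groups.

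The Notch pathway itself, the target of the antibody, gave 1 call among 25 tested receptors, ligands and targets, and that was Tcf7. The median was -0.17. Notch1, the receptor, overlapped (-1.77, 0.25 and -1.13 against 0.13, 0.70 and 1.72; -1.79 ± 0.75, adjusted p = 0.428). The targets Hes1 and Dtx1 differed in sign, at 1.28 (adjusted p = 0.521) and -2.57 (adjusted p = 0.155). Of 9 early T-lineage genes 0 were called, with 5 at an unadjusted p under 0.05 (1 higher, 4 lower); Ptcra, the pre-T receptor chain, was at -1.74, -1.29 and -4.37 against 1.12, 1.94 and 1.05 (-3.89 ± 0.89, adjusted p = 0.0706). Of 18 egress and maturation genes 1 was called, Nsg2, a vesicle protein, at 2.50, 1.95 and 0.97 against 5.79, 5.84 and 6.72 (-4.37 ± 0.61, adjusted p = 0.00535).

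Of 14 regulatory T-cell genes 3 were called lower in DN1 cells (0.485% of all genes were), 12 were negative, and the median was -1.58. Foxp3, the transcription factor that defines regulatory T cells, was at -7.97, -7.26 and -7.28 in DN1 cells, where 2 of 3 arrays measured it above background, and at 0.13, 0.30 and -0.54 in thymocytes. The groups were far apart (-7.52 ± 1.49, adjusted p = 0.0379). Izumo1r, which encodes folate receptor 4 of regulatory T cells, was at -0.29, 1.41 and -0.32 against 3.38, 4.06 and 5.48 (-4.09 ± 0.75, adjusted p = 0.0268). Tnfrsf4, the co-stimulatory receptor OX40, fell by 3.23 ± 0.66 (adjusted p = 0.041). Ctla4, an inhibitory receptor, had overlapping levels (-0.93, adjusted p = 0.759), as did Il2ra.

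B-cell surface genes had the highest median of the 37 gene lists examined. Of 30 tested genes of the B-cell receptor complex and B-cell surface, 3 were called higher and 0 lower, where 0.12% of all genes were called higher. The median was 1.84, 28 of 30 were positive, and 22 of 30 lay above without overlap (7.06% of all genes did).

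Syk, the kinase that relays B-cell and pre-B-cell receptor signals, was at 3.71, 4.48 and 4.88 in DN1 cells against 1.62, 0.81 and 1.91 in thymocytes, a 7.21-fold rise (2.85 ± 0.57, adjusted p = 0.0366). Scd1, a fatty acid desaturase on the list, was at 4.45, 4.45 and 3.86 against 2.20, 1.47 and -0.50 (3.14 ± 0.68, adjusted p = 0.0464). Cd40, the co-stimulatory receptor of B cells and other antigen-presenting cells, was at 0.47, 1.56 and 1.05 against -1.74, -1.26 and -1.84 (2.58 ± 0.51, adjusted p = 0.0339). All 3 genes were separated without overlap. Cd40 was also the only call higher among 26 conventional dendritic cell genes (median -0.91) and among 18 co-stimulatory and inhibitory molecules (median -0.49, 1 lower, Tnfrsf4). The call of Syk was kept in 9 of 20 alternative fits and that of Scd1 in 5, all with the same sign.

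Cd79a and Ms4a1, a receptor chain and the surface protein CD20, were at 1.55 and 1.46 (adjusted p = 0.456 and 0.459) and overlapped through thymocyte replicate 3. The other probe of each, well above background on all 6 arrays, was at 2.78 for Cd79a and 2.4 for Ms4a1. These probes were not tested on their own. The mean level of the list was 3.76 to 4.19 on the DN1 arrays, 1.73 to 2.38 on the treated thymocyte arrays and -1.37 to -0.26 on the control thymocyte arrays. Without the dimmest array of each group the median of the list was 1.96 with 0 calls.

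Syk has 2 starts in the RefSeq table. The 250 bases before the one listed first, chr13:52583187-52583436 on the plus strand of GRCm38.p6, are shown as a B-lineage counterpart of the T-cell windows. Capitals mark the E-box CAGGTG, which here lies on the opposite strand, 200 bases before the start.
Syk: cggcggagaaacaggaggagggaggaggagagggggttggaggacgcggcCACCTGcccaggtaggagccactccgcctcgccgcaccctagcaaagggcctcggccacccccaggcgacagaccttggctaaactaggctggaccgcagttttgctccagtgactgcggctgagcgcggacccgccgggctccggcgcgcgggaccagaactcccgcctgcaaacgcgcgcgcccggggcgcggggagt

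The transcription factors and the precursor genes of the B lineage gave no call. Of 16 B-lineage factors 0 were called with limma (3 higher and 0 lower at an unadjusted p under 0.05), with a median of 0.57. Pax5, which commits cells to the B lineage, was at 0.77, 1.77 and 2.32 against -0.07, -1.64 and -2.06, without overlap (2.82 ± 0.82, adjusted p = 0.154). Ebf1, which acts with it, was at 1.19, 1.14 and 1.96 against -1.01, -1.93 and 0.11, also without overlap (2.31 ± 0.68, adjusted p = 0.154). Pou2af1, a B-cell coactivator, overlapped (0.73 ± 0.69, adjusted p = 0.769).

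Of 18 B-cell precursor genes 0 were called (1 higher and 3 lower at an unadjusted p under 0.05), at a median of 0.86. Vpreb1, part of the surrogate light chain of the pre-B receptor, was at 7.17, 3.70 and 6.55 in DN1 cells and 5.18, 2.09 and 5.74 in thymocytes (1.41 ± 1.08, adjusted p = 0.704). It was high in most samples of both populations, with the lowest value of each group on its replicate 2. Igll1, the other part of the surrogate light chain, followed the same order within each group at 6.67, 2.44 and 6.16 against 3.76, -1.57 and 5.61 (2.43 ± 1.5, adjusted p = 0.619). Vpreb3 was at 7.84, 5.49 and 7.30 against 5.53, 3.77 and 7.37 (1.26 ± 1.04, adjusted p = 0.727).

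Of 11 MHC class II genes, which present antigen on B cells, dendritic cells and macrophages, 0 were called, at a median of 0.41. At an unadjusted p under 0.05 there were 4 higher and 0 lower, where 10.6% of all genes reached it in either direction. H2-Aa was at 1.05 ± 0.50, H2-Ab1 at 0.41 ± 0.48 and H2-Eb1 at 0.34 ± 0.50 (adjusted p = 0.448, 0.816 and 0.862). All 3 had the opposite sign on the shared slide (-0.45, -0.52 and -0.45).

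**Figure D3:**
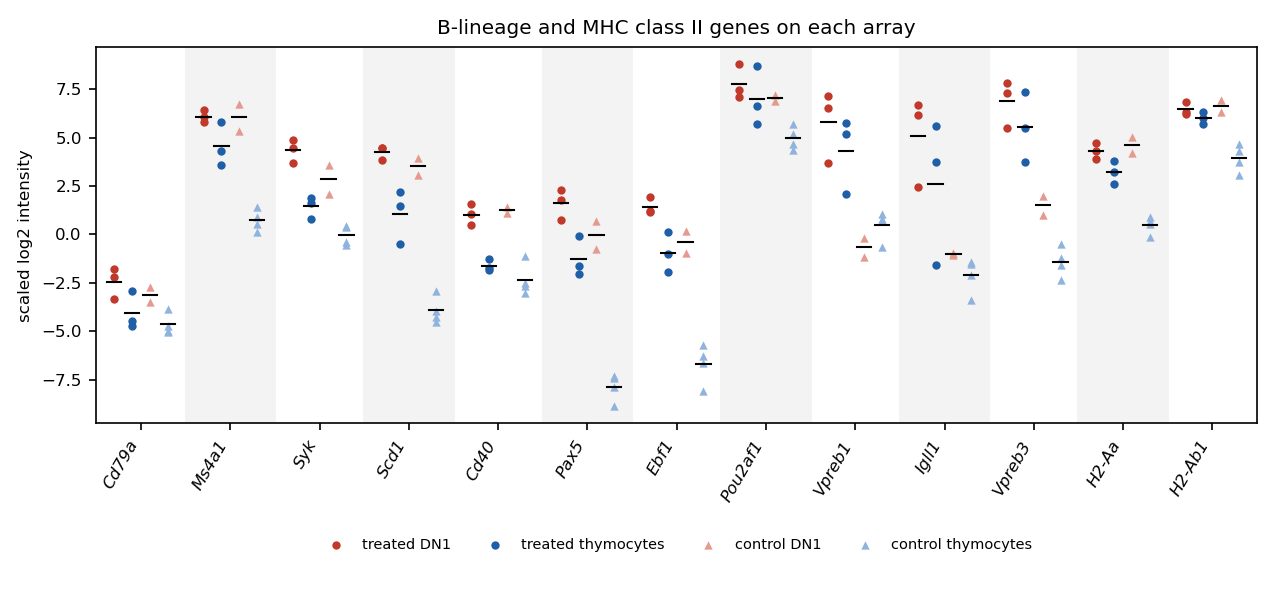
Scaled log2 intensity of 13 B-lineage and MHC class II genes on each array of treated (circles) and control (triangles) DN1 cells and thymocytes; bars are group means. The treated groups are separate for Syk, Scd1, Cd40, Pax5 and Ebf1, and overlap for Vpreb1, Igll1 and Vpreb3; the control thymocytes lie lowest for Pax5, Ebf1, Scd1 and Ms4a1.

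Macrophage genes formed a further group below the thymus. Of 29 tested monocyte and macrophage genes 7 were called lower and 0 higher, where 0.485% of all genes were called lower. All 29 were negative, 21 lay below without overlap (6.91% of all genes did), and the median was -2.31. The mean level of the list was -1.35 to -0.90 on the DN1 arrays and 1.09 to 1.38 on the thymocyte arrays.

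C1qa and C1qc, chains of the complement protein C1q made by tissue macrophages, were each separated by more than the spread. C1qa was at 1.89, 3.37 and 2.59 in DN1 cells and 5.79, 6.37 and 7.32 in thymocytes (-3.93 ± 0.62, adjusted p = 0.0107), and C1qc fell by 4.24 ± 0.67 (adjusted p = 0.0107). Slc40a1, the iron exporter ferroportin, was at -0.56, -5.92 and -2.22 against 3.17, 3.17 and 2.99 (-6.06 ± 1.16, adjusted p = 0.0344). Its thymocyte values were nearly equal while the DN1 values spread widely. Timd4, a receptor for dying cells, was above background on 2 of 3 DN1 arrays and fell by 5.80 ± 1.15 (adjusted p = 0.0379), and Ms4a7 fell by 3.98 ± 0.80 (adjusted p = 0.0386).

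The other called members, Vcam1 (-3.87 ± 0.47, adjusted p = 0.00293) and Lyz1 (-2.39, adjusted p = 0.0377), are named after their values were seen. The general markers Csf1r, Adgre1 and Cd14 were at -2.68, -2.21 and -1.71 without a call (adjusted p = 0.243, 0.413 and 0.654). Cd5l, a secreted macrophage protein outside the list, was above background on all 3 thymocyte arrays and on 0 of the DN1 arrays, and was at least 123-fold lower (adjusted p = 0.0264). The bound rests on the DN1 arrays' dimmest detected signal, or on the probe's measured value where that was higher. Without the dimmest array of each group 2 of the 29 genes were called, at a median of -2.09.

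The 250 bases before the start of C1qc, chr4:136892915-136893164 on the minus strand of GRCm38.p6 (RefSeq), are shown as a macrophage gene of this group. They hold the PU.1 letters as ACTTCCTC, the reverse strand of GAGGAAGT, 195 bases before the start (capitals). PU.1 is a factor of the myeloid and B lineages.
C1qc: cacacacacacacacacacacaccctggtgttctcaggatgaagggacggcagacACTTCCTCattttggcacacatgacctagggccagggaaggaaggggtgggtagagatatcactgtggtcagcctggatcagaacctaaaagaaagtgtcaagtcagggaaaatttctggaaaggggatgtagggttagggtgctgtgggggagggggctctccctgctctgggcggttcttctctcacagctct

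Neutrophil granule genes showed the lowest median of the 37 lists. Of 16 tested, 2 were called lower (0.485% of all genes were), all 16 were negative, and the median was -5.29. However, the DN1 arrays differed widely among themselves. Retnlg, a secreted neutrophil protein, was at -4.53, -8.97 and -9.39 in DN1 cells (1 of 3 arrays above background) and 1.55, 0.92 and 2.09 in thymocytes (-9.21 ± 1.71, adjusted p = 0.0284). Chil3, a chitinase-like protein of myeloid cells, was at -2.71, -1.04 and -1.33 against 4.65, 1.98 and 4.05 (-5.31 ± 1.13, adjusted p = 0.0485). S100a8 and S100a9, the subunits of calprotectin, were below without overlap but with SDs of 5.27 and 4.61 among the DN1 arrays (adjusted p = 0.197 and 0.18). For S100a8 the DN1 levels were -3.78, -10.51 and -0.12. Mpo, the granule enzyme myeloperoxidase, was at -3.58 (adjusted p = 0.256). Without the dimmest array of each group 0 neutrophil and 0 regulatory T-cell genes were called, at medians of -5.01 and -1.21. Pf4, a platelet chemokine that was among the largest falls, was at -6.00, -6.66 and -9.84 against -0.42, 0.57 and 0.33 (-7.72 ± 1.59, adjusted p = 0.041). Its probe was well above background on 2 of 3 DN1 arrays.

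A transcript of globin, the main protein of red cells, gave the smallest p of the comparison. Hbb-b2, an adult beta globin, was at 0.43, -0.84 and 0.62 in DN1 cells and 5.73, 7.44 and 6.85 in thymocytes, a 101-fold difference (-6.66 ± 0.68, adjusted p = 0.00118). It was the only gene named here that kept its call with slide as a fixed block. Hbb-bt, a near-identical beta globin whose signal may be shared with it, was at 2.34, 0.67 and 2.06 against 6.42, 7.77 and 8.76 (-6.01 ± 1.07, adjusted p = 0.0207). Of 10 tested erythroid genes 1 was called lower (0.485% of all genes were), at a median of -1.61. Hba-a1 was at -3.57 on its brightest probe (adjusted p = 0.481). Its other probes, well above background on all 6 arrays, were at -6.92 and -7.18 and were not tested on their own. Klf1, the erythroid transcription factor, was at -0.18 (adjusted p = 0.985) with a low level in both groups.

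Of 21 plasmacytoid dendritic cell genes 4 were called lower (0.485% of all genes were), at a median of -1.21. The 4 were Ccr9, Klk1 (-4.71 ± 0.88, adjusted p = 0.0308), Lair1, an inhibitory collagen receptor (-3.63 ± 0.54, adjusted p = 0.00839), and Pacsin1 (-3.43 ± 0.68, adjusted p = 0.0379). The defining genes of these cells gave no call: Siglech was at -4.83 (adjusted p = 0.219), Bst2 at -1.03 (adjusted p = 0.655) and Tcf4 at 1.71 (adjusted p = 0.356). Among conventional dendritic cell genes Itgax, Zbtb46 and Flt3 were at -1.74, 0.37 and 0.19 (adjusted p = 0.569, 0.906 and 0.945), and the probes of Itgax and Zbtb46 disagreed in sign. Of 16 thymic epithelial genes 1 was called lower, the keratin Krt18, at 0.36, 2.04 and 1.61 against 4.2, 4.88 and 5.25 (-3.50 ± 0.62, adjusted p = 0.022), and 1 higher, Cd40. Krt5 (-2.90) and Krt8 (-1.56) lay below without overlap and without a call (adjusted p = 0.33 and 0.868), and Foxn1, the factor that defines the epithelium, was dim in both groups (-0.10, adjusted p = 0.993). The part of these other cell types in the T- and B-lineage differences was not tested.

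Of 24 chemokines and their receptors 1 was called, Ccr9, and 20 were negative (median -1.43). Of 23 stem and progenitor regulators 0 were called (2 higher and 1 lower at an unadjusted p under 0.05), at a median of 0.50. Kit, the stem cell factor receptor, was at 0.80, 1.47 and -0.47 against 0.83, 0.30 and -0.64 (adjusted p = 0.895), and Hhex, a regulator of lymphoid progenitors, at 2.73, 2.78 and 2.39 against 1.95, 0.64 and 0.09 (1.68 ± 0.91, adjusted p = 0.542). Of 15 mast cell and basophil genes and 17 fibroblast and endothelial genes 0 were called (medians 0.16 and -0.31). In 10 further lists with 230 tested genes, among them replication, mitosis, ribosomal, respiratory chain, interferon and immediate-early genes, 0 were called higher or lower, and the medians ran from -0.61 to 0.21.

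**Figure D4:**
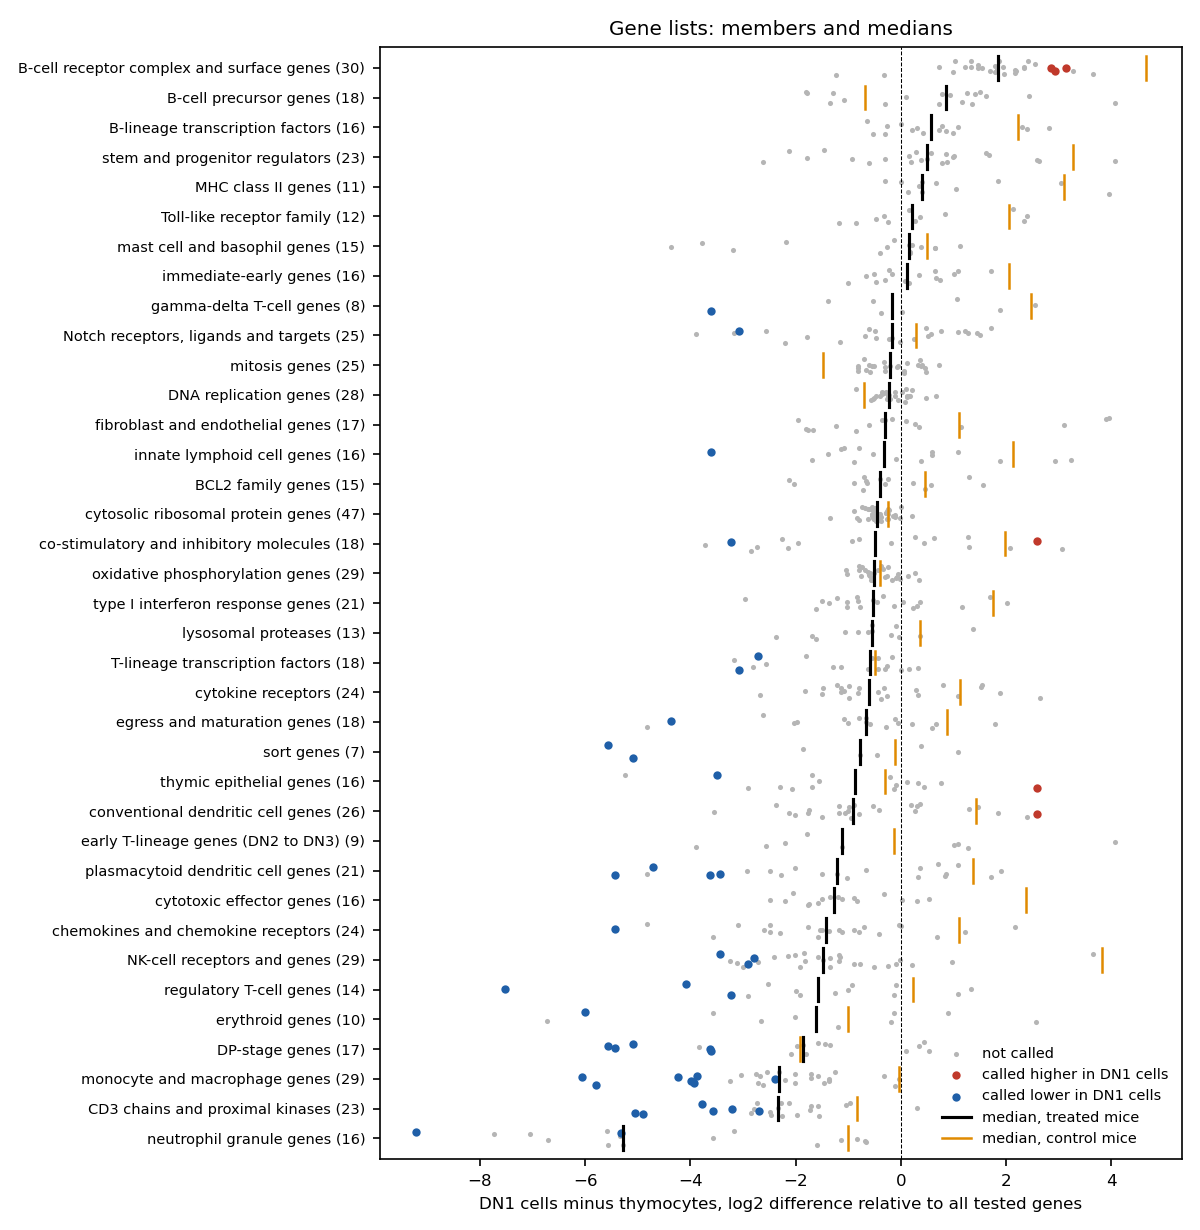
Log2 difference between DN1 cells and thymocytes of treated mice for the tested members of 37 gene lists (points, number tested in parentheses), with the median in treated mice (black) and control mice (orange). Neutrophil, CD3-chain, macrophage and DP-stage genes have the lowest medians in treated mice (-5.29, -2.33, -2.31 and -1.86), B-cell surface genes the highest (1.84), and the NK-cell list has medians of -1.48 in treated and 3.83 in control mice.

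Outside the lists, the largest called rises with RefSeq names were in genes that were dim in thymocytes. Gtf2a1l, a general transcription factor of the germ line, was at -1.58, -2.64 and -0.32 in DN1 cells and -8.09, -8.72 and -7.89 in thymocytes (6.66 ± 1.26, adjusted p = 0.0292), but this probe was well above background on 0 thymocyte arrays. Its other probe, well above background on all 6 arrays, was at -0.53, so no fold is given. Mpped2, a phosphodiesterase, was at 0.29, -0.17 and -1.83 against -6.32, -7.62 and -6.43, with both measured probes higher (6.16 ± 0.99, adjusted p = 0.0107). Mbd5, a methyl-CpG-binding domain protein, was not above background on any thymocyte array and was at least 13.7-fold higher (adjusted p = 0.00497). Gm4827 (4.50) and Sec61a2, a subunit of the protein translocation channel (3.79), followed, and the other measured probe of Sec61a2 was at -0.96.

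Among brighter genes, B3gnt5, which starts the synthesis of lacto-series glycolipids, was at 1.54, 1.48 and 0.93 against -1.84, -2.17 and -2.07 (3.29 ± 0.52, adjusted p = 0.01). Tgif1, a repressor in TGF-beta signalling, was at 3.68, 3.64 and 3.95 against 1.72, 1.61 and 1.26 (2.17 ± 0.45, adjusted p = 0.0379). Both genes had tight values within each group. Dmac2l, a mitochondrial factor, was 4.41-fold higher (2.14 ± 0.45, adjusted p = 0.0401).

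Other large falls were in Art1 (-7.18 ± 1.24), Ggt1, a glutathione-degrading enzyme (-6.88 ± 1.41), C2cd4b (-6.35 ± 0.89), Hacd4 (-6.23 ± 1.08) and Fn3k (-6.14 ± 1.13), with adjusted p of 0.0172, 0.041, 0.00535, 0.0175 and 0.0271. In DN1 cells the probe of Art1 was well above background on 1 of 3 arrays and that of Fn3k on 2 of 3. A second probe of Art1 was at 0.25. Tspan10, Hoxa2 and B3galnt1 were not above background on any DN1 array and were at least 71.3-fold, 33.3-fold and 21.7-fold lower (adjusted p = 0.0284, 0.00293 and 0.0119).

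The same contrast was next set beside that of the isotype control mice, to ask which population differences depended on the antibody. In control mice 208 of 21159 tested genes were higher in DN1 cells (0.983%) and 103 were lower (0.487%), 1.47% in either direction, and 14.3% reached an unadjusted p under 0.05. Of the 131 genes called in treated mice 117 were tested in control mice, and 83.8% of those had the same sign there, against 61.6% of all 20664 genes tested in both. Both contrasts called 28 genes, 21.4% of the treated and 9% of the control calls. Of these 24 had the same direction, among them Syk (3.30 in control mice), Scd1 (7.86), Cd40 (4.02), B3gnt5 (3.81), Themis (-3.52), Nsg2 (-2.96) and Aqp11 (-2.48). The other 4 had opposite directions: Klra9, Klra10, Klrb1a and the unnamed transcript AK034901.

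The difference between the treated and the control contrast was tested as such. It was called for 27 of 22633 genes, 6 higher (0.0265%) and 21 lower (0.0928%), or 0.119% in all, while 6.89% reached an unadjusted p under 0.05. Of the 27 called genes 9 were NK-cell lectin-like receptors of the Klr family, whose share among all tested genes was not counted. Of the 27 genes 10 were also called in the treated contrast, which enters the difference. The test rests on the 2 control DN1 arrays: without replicate 1 of them 1 gene was called higher and 0 lower, and without replicate 2 the counts were 0 and 0. With slide as a fixed block they were 0 and 1.

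Klre1, an NK-cell receptor, was at -3.37, -4.12 and -3.30 in treated DN1 cells and 0.30, -0.26 and -1.63 in treated thymocytes (-3.12 ± 0.74, adjusted p = 0.0816), and a second probe was at 0.19. In control mice it was higher in DN1 cells by 4.92 ± 0.78 (adjusted p = 0.00839), and the contrasts differed by -8.03 ± 1.07 (adjusted p = 0.0123), with 2 of 4 control thymocyte arrays well above background. Klra9 was at -0.91, 0.22 and 0.19 against 3.69, 3.13 and 2.81 in treated mice (-3.43 ± 0.69, adjusted p = 0.0401) and higher in DN1 cells by 3.93 ± 0.74 in control mice (adjusted p = 0.0257). For both genes the treated thymocytes lay above the treated DN1 cells on every array, and the control thymocytes below the control DN1 cells. Klra10 fell by 3.45 ± 0.70 in treated mice (adjusted p = 0.0401) and rose by 4.15 ± 0.74 in control mice (adjusted p = 0.018). Klra8 (-7.21) and Klrb1a (-5.90) also differed between the contrasts (adjusted p = 0.0177 and 0.0131), as did Klra3 (-5.15, adjusted p = 0.0444). The Klra genes are near-identical copies, and their probes may share signal.

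Of 29 tested NK-cell genes 3 were called lower in treated mice (Klra9, Klrb1a and Klra3), where 0.485% of all genes were. Of the 29, 26 were negative, and the median was -1.48. In control mice the median of that list was 3.83, with 9 called higher and 0 lower. The mean level of the list was -0.56 to 0.28 in treated DN1 cells, 1.02 to 1.30 in treated thymocytes, 0.51 to 0.70 in control DN1 cells and -3.13 to -1.70 in control thymocytes, so the control thymocytes stood apart from the other groups. Without the dimmest array of each treated group 0 NK-cell genes were called in treated mice, at a median of -1.5. Klrd1 was at -1.17 (adjusted p = 0.552) and Ncr1, the NK receptor NKp46, at -0.24 (adjusted p = 0.976) in treated mice.

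Of 16 cytotoxic effector genes 0 were called in treated mice (0 higher and 3 lower at an unadjusted p under 0.05), at a median of -1.28 against 2.38 in control mice. Gzmb, the protease granzyme B, was at 2.49, 4.07 and 3.11 in treated DN1 cells against 4.80, 4.61 and 3.67 (-1.2 ± 0.56, adjusted p = 0.499). Its contrasts in treated and control mice differed (-5.05 ± 0.82, adjusted p = 0.0403). Prf1, the pore protein perforin, and Gzma were at -2.20 and -1.12 in treated mice (adjusted p = 0.39 and 0.844).

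**Figure D5:**
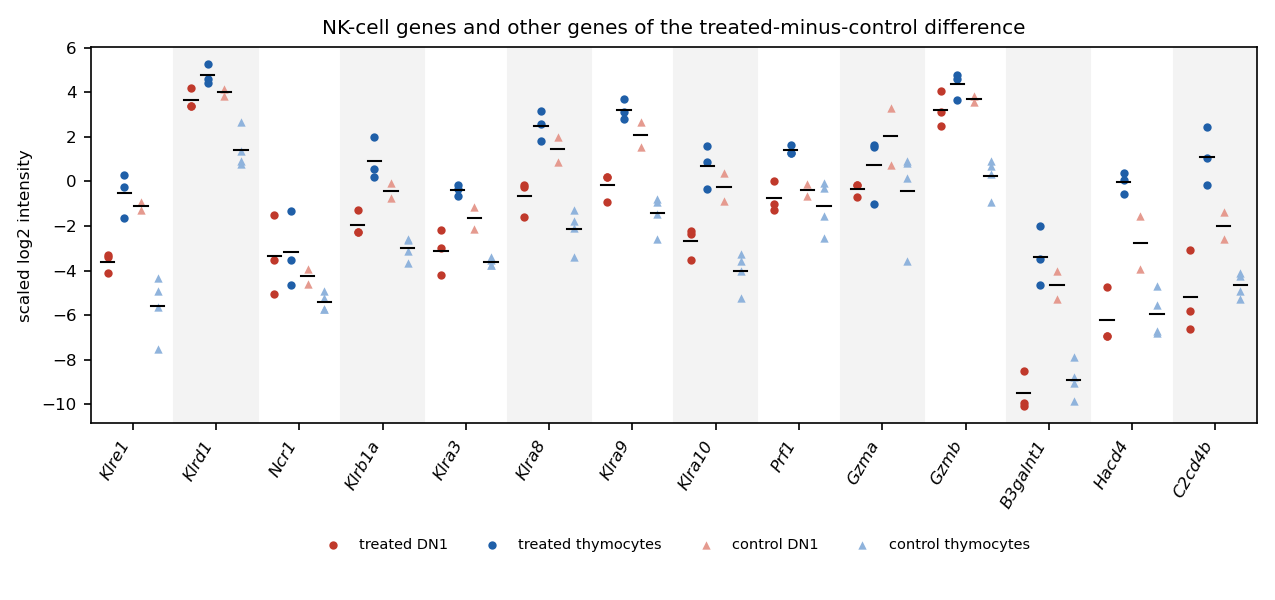
Scaled log2 intensity of 11 NK-cell and cytotoxic genes and of B3galnt1, Hacd4 and C2cd4b on each array of treated (circles) and control (triangles) DN1 cells and thymocytes; bars are group means. For Klre1, Klra9 and Klra10 the treated thymocytes lie above the treated DN1 cells, while the control thymocytes lie below the control DN1 cells.

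Genes outside the lists also differed between the contrasts. Hacd4, a fatty acid elongation enzyme, differed by -9.82 ± 1.57 (adjusted p = 0.0288) and C2cd4b by -9.39 ± 1.30 (adjusted p = 0.0127), both with all 12 arrays well above background. B3galnt1, a glycosyltransferase, was called too (adjusted p = 0.0123), but was well above background on 0 of 3 treated DN1 and 0 of 4 control thymocyte arrays, so the size of its difference was not measured. Smarcd3, a chromatin remodelling subunit, differed by -8.75 ± 1.28 (adjusted p = 0.0147) and was well above background on 1 of 3 treated DN1, 2 of 3 treated thymocyte and 2 of 4 control thymocyte arrays. In the opposite direction Tctn1, a protein of the ciliary base, was at 1.89 ± 0.72 in treated mice (adjusted p = 0.315) and -4.44 ± 0.76 in control mice (adjusted p = 0.00503), a difference of 6.35 ± 1.05 (adjusted p = 0.0147). Rpl3l, Cldn34c1 and Firre differed by 7.42, 4.81 and 3.39 (adjusted p = 0.0288, 0.0419 and 0.0337).

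The list medians of both contrasts can be set side by side. The DP-stage median was -1.86 in treated and -1.92 in control mice, that of CD3 chains and kinases -2.33 and -0.83, and that of T-lineage factors -0.58 and -0.50. The B-cell surface median was 1.84 in treated and 4.65 in control mice, where 21 of the 30 genes were called higher. The medians of B-lineage factors (0.57 and 2.23), MHC class II genes (0.41 and 3.1) and stem-cell regulators (0.50 and 3.27) were likewise smaller in treated mice. The macrophage median was -2.31 in treated and -0.04 in control mice. The difference between treated and control mice was called for 0 genes of the DP-stage, CD3, B-cell surface, MHC class II and macrophage lists, and no test of a list's median was made.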

How the data were processed

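The authors read each array with Feature Extraction, Agilent's software (version 9.5.3.1 per the file headers, and 9.5 in the submitters' processing notes), and the deposited intensity is background-subtracted. From it, log2 intensity minus the 75th percentile of the array's non-control spots was taken, and the brightest probe of each of 25589 genes was kept. Genes that stood well above background on 2 or more of these 6 arrays were tested with limma 3.58.1 (R 4.3.3) in 1 model of 6 group means over 18 arrays, with 12 residual degrees of freedom and two-sided p-values adjusted by Benjamini-Hochberg over all tested genes. The deposited series table, close to log2 ratios to each probe's centre (the centre and divisor are not given in the sources used here; column medians 0.638 to 1.01 on the 6 arrays), served as an alternative.

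The members and gene lists were chosen with earlier results of these data known. Named genes are the largest calls, the first 3 genes and up to 5 called members of each list, the sort genes and the largest differences between treated and control mice. RefSeq names fit 19123 genes. Each group has 2 to 4 arrays, and their number limits the precision. On simulated data with 50 genes per size in this comparison of 21652 genes, log2 changes of 2, 4, 6 and 8 were recovered in 8%, 64%, 86% and 100% of genes, and 5 unchanged genes were called. The samples of the DN population (CD4- CD8-) entered only the shared spread. Some genes are not reported here.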

Additional observations from a re-analysis of the deposited data

Results flagged for a closer look

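The difference between DN1 cells and thymocytes was tested for a change between treated and control mice, and these named genes passed (limma, adjusted p under the threshold, values in log2, treated minus control). Among receptors and effectors of NK cells the values were -8.03 for Klre1, -7.58 for Klra10, -7.35 for Klra9, -7.21 for Klra8, -5.90 for Klrb1a, -5.15 for Klra3 and -5.05 for Gzmb. Other genes lower in the treated contrast were Hacd4 (-9.82), C2cd4b (-9.39) and Smarcd3 (-8.75). The fitted values of B3galnt1 (-10.84) and Hoxa2 (-6.86) rest on groups that were not well above background and are no measured sizes: B3galnt1 was at that level on 0 of 3 treated DN1 and 0 of 4 control thymocyte arrays, and Hoxa2 on the 3 treated thymocyte arrays only. Genes higher in the treated contrast were Rpl3l (7.42), Tctn1 (6.35), Cldn34c1 (4.81) and Firre (3.39).

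In the group of 4 control thymocyte arrays, a value stood apart from the others for 3 of the 111 genes examined, and chance does this in about 1 of 20 groups of this size. Izumo1r was at 6.73 on 1 array with the nearest other at 4.46. Gzma was at -3.56 with the nearest other at 0.16, and Zbtb46 at -2.17 with the nearest other at -4.06. All 3 values were those of replicate 1. These arrays enter the control contrast and, through the shared spread, the p-values of treated mice.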

How the results depend on the processing

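Deviations of same-numbered samples from their group means correlated at -0.17, 0.08 and -0.18 across genes. Those of differently numbered samples correlated at -0.13 to 0.24. The replicate numbers thus gave no sign of pairing, but these values cannot show whether samples share animals. With the replicate number as a block on the 6 arrays, 0 genes were called higher and 0 lower (smallest adjusted p = 0.374, 1644 genes at an unadjusted p under 0.05), and without the replicate block on these 6 arrays the counts were 0 and 0. Against 26 higher and 105 lower genes, the counts were 70 and 189 after quantile normalization, 4 and 37 with normexp (9.76% higher), and 0 and 2 with slide as a fixed block. Leaving out 1 array in turn gave 2 to 41 higher and 19 to 84 lower. Without the dimmest array of each group the counts were 11 and 37, and with the 12 DN1 and thymocyte arrays alone 28 and 89, both chosen after seeing the data. All 131 genes kept their sign in every setting in which all arrays entered, except 1 gene that the stricter filter removed. Settings that changed only the filter, the replicate block or the arrays behind the spread keep the same group means. In those the signs could hardly change.

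For the difference between treated and control mice (6 higher, 21 lower) the counts were 1 and 5 with normexp, 7 and 40 after quantile normalization, and 0 and 1 with slide as a fixed block. Scaling on probes detected on all arrays gave 37 lower, leaving out the dimmest arrays 9 lower, and the 12 arrays alone 2 and 7. Leaving out 1 array gave 0 to 11 higher and 0 to 27 lower. The lower count was 13 without treated thymocyte replicate 1 and 8 without treated DN1 replicate 3, and the higher count was 2 without the latter, 3 without treated thymocyte replicate 2 or control thymocyte replicate 1 or 2, and 11 without treated thymocyte replicate 3.

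Of 111 genes in the text 10 changed sign somewhere, and 0 of these were called. On the shared slide Il2ra was at -0.29, H2-Aa -0.45, H2-Ab1 -0.52, H2-Eb1 -0.45, Flt3 -1.26, Foxn1 1.16 and Kit -0.05. With slide as a fixed block Klf1 was at 0.36, Flt3 -0.21 and Foxn1 0.40. With the mean of all probes Zbtb46 was at -0.82 and Foxn1 at 0.10, and after quantile normalization Flt3 was at -0.04. Leaving out 1 array in turn gave -1.27 to 0.84 for Ncr1, -0.30 to 0.65 for Flt3, -0.74 to 0.59 for Klf1, -0.57 to 0.41 for Foxn1 and -0.21 to 0.88 for Kit, and without both dimmest arrays Foxn1 was at 0.26 and Kit at -0.13. The cause of these moves was not tested. Of 37 list medians 25 kept their sign in all 27 settings. Genes near background, such as Foxn1 and Klf1, are measured with the least precision here.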
